A study of Mus musculus with 21 samples.

Results

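Immediate early genes are switched on within minutes when a cell is stimulated, stressed or cut, without any new protein having to be made first. The results below concern 36 genes listed as immediate early and dissection stress genes, among the 24391 genes counted in each library. The list is one of symbols chosen by name, and it also holds members that are expressed at rest. All 36 symbols were found in all 21 libraries. The libraries hold poly(A) RNA-seq counts from the brain, liver and skin of C57BL/6 newborns at postnatal day 0. In each tissue 2 mice were heterozygous Jak1 KI (Jak1 KI +/-), with a missense change in the kinase gene Jak1 and synonymous changes in the codons beside it on the same allele, and 5 mice were wild type (WT). The study's text describes a mosaic male as the breeder of the KI line. The labels name no treatment for any mouse. The questions were whether mice that stood high in one tissue also stood high in another, how the tissues differed in WT mice, and whether KI differed from WT within a tissue.

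The first products of this response are transcription factors. Signals through MAP kinases reach the serum response factor and its ternary complex partners at CArG boxes, and signals through cyclic AMP and calcium reach CREB at cyclic AMP response elements (CREs), both already bound at the promoters. The transcripts are short-lived and are lost again within an hour or so. The second set of products shuts the response down, among them the MAP kinase phosphatases of the DUSP family and the RNA decay factor Zfp36. Killing, dissection and warm handling of tissue are known to start the same programme, which is why these genes are followed as a record of handling in tissue samples. In bulk tissue, a higher level in every cell and a larger share of responding cells cannot be told apart.

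Between 26549326 and 38388133 reads per library were counted on genes. The labels do not say which libraries came from 1 mouse, so a KI or WT number was read as 1 animal across tissues. The presence or absence of Y-linked reads was the same in the 3 tissues for 7 of 7 mice under this rule. Of these, 2 had Y-linked reads in all 3 tissues and the others had not. This check cannot tell apart mice of the same state, so the matching of libraries within each state rests on the numbers alone. Neuronal markers were high in the brain libraries (summed level of 6 genes 6440 to 8612 CPM, that is counts scaled to library size) and hepatocyte markers in the liver libraries (146415 to 181878 CPM). The summed level of 6 keratinocyte markers in the skin libraries ran from 860 CPM in KI 2 and 1459 CPM in WT 5 to 13661 CPM in KI 1 and 16614 CPM in WT 4. Skeletal muscle markers summed to between 5366 and 23130 CPM in the same skin libraries, so the make-up of the skin pieces differed between libraries. The study's methods give a lower RNA integrity for the skin than for the liver. The brain libraries were not uniform either. Ttr, 1 of the hepatocyte markers, was 874 and 963 CPM in the brains of KI 1 and KI 2. It was 34.1, 20.7, 359, 1210 and 2551 CPM in those of WT 1 to WT 5. All 6 hepatocyte markers together summed to 875 to 970 CPM in KI brains and 33.0 to 2557 CPM in WT brains. Where the sum was high, Ttr alone thus made up nearly all of it, and the spread was not one of hepatocyte markers in general. The brain library of WT 5 stood apart from the other brains, with the highest Ttr and the highest neuronal marker sum (8612 CPM). The part of tissue make-up in this was not tested. Jak1 itself was 1.16-fold, 1.23-fold and 1.14-fold the WT level in KI brain, liver and skin. It was not called (edgeR adjusted p = 0.719, 0.125 and 0.999). Both KI mice were above all WT mice for Jak1 in liver and skin, as were 13% and 4.91% of all genes tested. The edit lies in the coding sequence and no level is set for it in advance, so the level of Jak1 does not check the labels.

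Each library was given a score, the mean log2 CPM over the 36 genes. In the skin the scores were 6.03 and 5.35 in KI 1 and KI 2, and 5.38, 5.57, 4.41, 4.92 and 4.35 in WT 1 to WT 5. In the liver they were 3.90 and 3.64 in KI 1 and KI 2, and 3.78, 4.00, 2.83, 3.36 and 2.49 in WT 1 to WT 5. The brain scores were 3.55 and 3.58 in KI 1 and KI 2, and 3.38, 3.56, 3.07, 3.11 and 3.50 in WT 1 to WT 5. Among WT mice, WT 1 and WT 2 stood high and WT 3 and WT 5 low in both skin and liver, while the brain scores lay close together and WT 5 was among the high brains. The score varied over 1.23 log2 units between the highest and lowest WT skin, over 1.52 in the liver and over 0.49 in the brain.

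**Figure D1:**
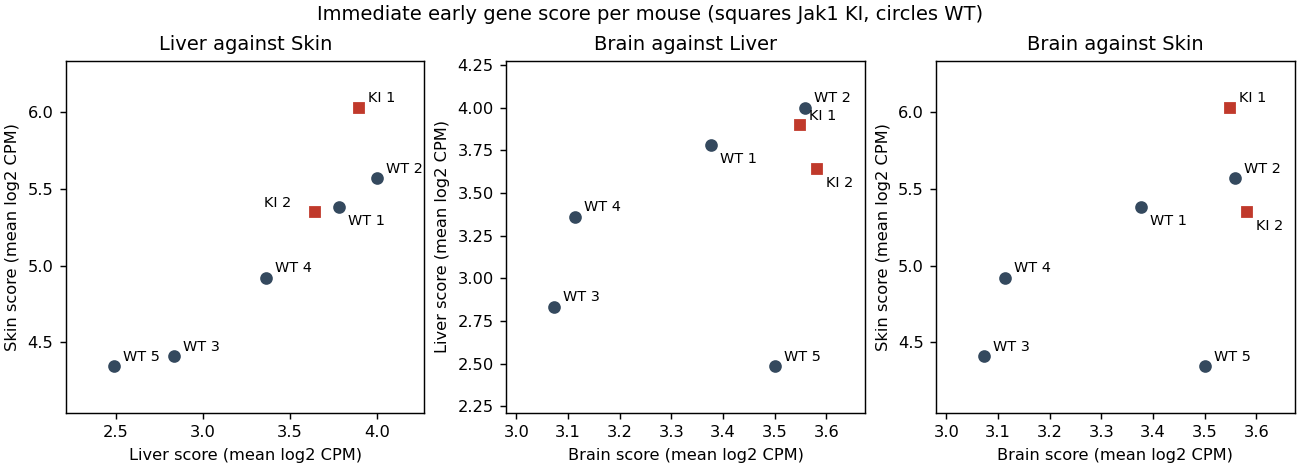
Score of each mouse (mean log2 CPM over 36 immediate early genes) in one tissue against another, with 2 Jak1 KI mice as squares and 5 WT mice as circles. The mice fall along a rising line from WT 5 to WT 2 and KI 1 for liver against skin, and WT 5 lies off any such line in both panels with the brain.

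Mice ranked nearly alike in liver and skin. Over 7 mice the scores of these tissues had a Spearman's rho of 0.96 and a Pearson's r of 0.94, and over the 5 WT mice alone a rho of 1 and an r of 0.99. Without WT 5 and WT 3, the mice farthest from the median in the liver, r was 0.83 and rho 0.90 over the other 5 mice. Brain and liver gave a rho of 0.54 (r 0.42) and brain and skin a rho of 0.50 (r 0.57), and without WT 3 and WT 4 these fell to a rho of 0.20 (r 0.10) and of 0.10 (r 0.21). WT 3 and WT 4 ranked 7 and 6 of 7 in the brain, so leaving them out also narrowed the range of brain scores. The low values with the brain rest in large part on single mice. WT 5 ranked 4 of 7 in the brain and 7 of 7 in liver and skin. KI 2 ranked 1 of 7 in the brain and 4 of 7 in the other tissues. The points share the mouse, its time of dissection and any order in which tissues were taken, which the labels do not give.

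The same held for single members between liver and skin. Taken one by one, 34 members passed the filter on low counts in both, and their median rho across 7 mice was 0.70, with 32 above 0 and 22 (64.7%) above 0.5. Among all 14206 genes that passed in both, the median rho was 0.14 and 20.4% were above 0.5. Myc (0.96), Fosb (0.93), Egr2 (0.93) and Dusp1 (0.93) had the highest rho values, followed by Ier2, Ier3 and Dusp2 at 0.89 each. Npas4 (-0.25) and Cyr61 (-0.07) were the 2 members below 0. Between brain and liver the members' median rho was 0.29, against 0.04 for all genes, and between brain and skin 0.21 against 0.14. In the pairs with the brain, Fos (0.68 with the liver, 0.82 with the skin), Fosb (0.86 and 0.89) and Egr1 (0.54 and 0.86) ranked the mice alike, whereas Btg1 (-0.75 and -0.43) ran the other way.

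Within a tissue the members also moved with each other. In the skin the correlation of a member with the mean of the remaining members across 7 mice had a median of 0.90, and 24 of 34 members (70.6%) lay above 0.8, against 1.35% of the other 16129 genes tested. Ier2 (r 0.99), Egr1 (0.99), Btg2 (0.98), Fosb (0.97) and Nr4a1 (0.97) followed the rest most closely there. Klf10 (-0.34), Gadd45b (0.03), Arc (0.22) and Egr3 (0.25) did not. In the liver the median was 0.78, and 14 of 34 members were above 0.8 (1.99% of the other genes), led by Nr4a1 (0.98), Rhob (0.97), Ier2 (0.96) and Klf2 (0.96). Cyr61 (0.15) and Klf10 (0.18) were the members that followed least in the liver. In the brain the median was 0.37 and 3 of 35 members, Maff (0.87), Fosl2 (0.82) and Junb (0.81), were above 0.8 (0.81% of the other genes). These correlations across libraries share each library's scaling.

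**Figure D2:**
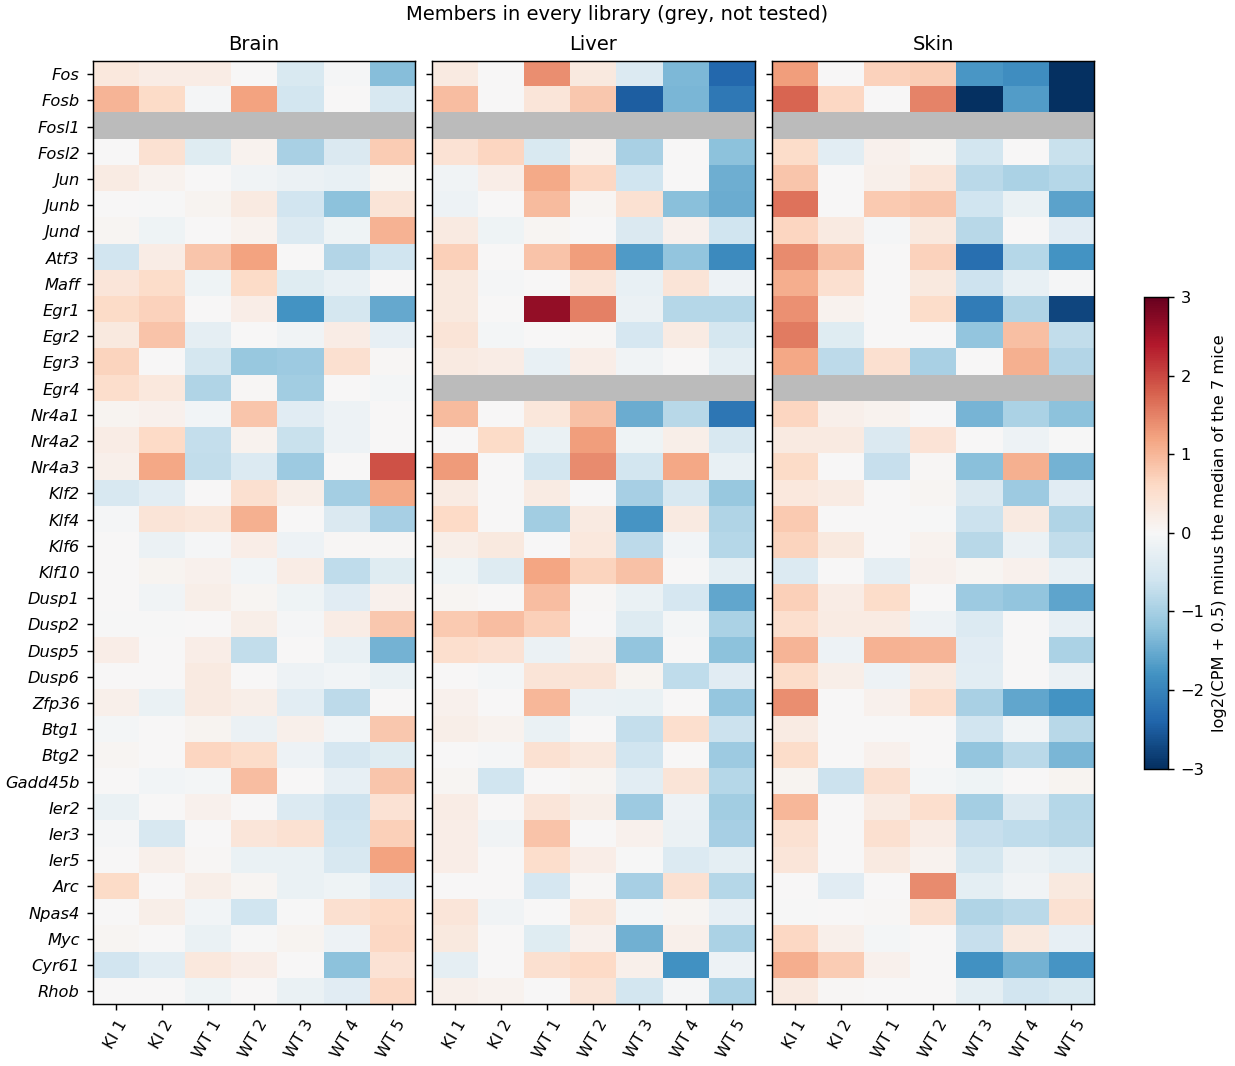
Each of the 36 members (rows) in each of the 21 libraries (columns), as log2(CPM + 0.5) minus the median of the 7 mice of that tissue, red above and blue below, with members that did not pass the filter in grey. In skin and liver most members are blue in WT 3 and WT 5 together, and in the brain no mouse is high or low across the whole list.

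A few mice held most of the extremes. In the skin KI 1 had the highest level of the 7 mice for 26 of 34 members, and WT 3 and WT 5 the lowest for 13 members each. In the liver WT 5 was lowest for 22 of 34 members, and WT 1 (12 members) and KI 1 (10 members) were highest most often. In the brain WT 5 was highest for 14 of 35 members and WT 4 lowest for 14. WT 5, most often the lowest liver, was thus most often the highest brain. The median ratio of the highest to the lowest WT library over the members was 2.67 in the skin, 3.29 in the liver and 2.40 in the brain, against 1.56, 1.41 and 1.76 over all genes tested. Among members with at least 10 reads in every WT library, this ratio went from 1.34 for Klf10 to 33.8 for Fosb in the skin, from 1.53 for Maff to 14.9 for Fos in the liver, and from 1.23 for Jun to 8.55 for Nr4a3 in the brain. It was larger than the KI-to-WT fold of the same member for 34 of 34 in the skin, 28 of 28 in the liver and 32 of 33 in the brain, where Egr2 was the exception. A range over 5 libraries tends to exceed a difference of means. Over all genes the median log2 range in WT was 0.64, 0.50 and 0.82 in skin, liver and brain. The median absolute log2 fold change over all genes was 0.15, 0.19 and 0.24, so this comparison does not set the members apart.

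In the values that follow, the 2 KI mice are given in the order KI 1 and KI 2 and the 5 WT mice in the order WT 1 to WT 5, in CPM scaled within a tissue. The FOS and JUN proteins pair to form AP-1, the factor that binds the TRE sequence. Fos was 618 and 258 CPM in KI skins and 414, 428, 76.9, 70.01 and 19.00 CPM in WT skins. The livers had 28.2 and 23.5 CPM in KI and 62.7, 28.96, 17.6, 8.92 and 4.21 CPM in WT. The brain values were 11.8 and 10.9 CPM in KI and 10.9, 9.34, 6.66, 9.05 and 3.55 CPM in WT. Fos spanned 22.5-fold between WT skins, with WT 1 and WT 2 together at the top, and the KI skins lay on either side of those. In the brain both KI mice lay above all WT mice, by a narrow margin over WT 1. For the KI against WT difference, the log2 fold change of Fos was 1.12 ± 1.03 (SE, edgeR adjusted p = 0.999) in the skin, 0.08 in the liver and 0.52 in the brain.

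Fosb, a close relative of Fos, had the widest WT range of all members in the skin, 170.4 and 77.7 CPM in KI and 50.2, 142, 4.50, 15.4 and 4.19 CPM in WT. In the liver it was 6.88 and 3.41 CPM in KI and 4.57, 6.38, 0.205, 1.00 and 0.391 CPM in WT, and in the brain 1.73 and 1.13 CPM in KI and 0.575, 2.04, 0.251, 0.595 and 0.279 CPM in WT. WT 3 and WT 5 were lowest in all 3 tissues, and KI and WT overlapped in each. Fosl2, a Fos-related member that is also expressed at rest, was 64.4 and 74.5 CPM in KI livers and 34.7, 51.6, 24.1, 47.8 and 20.2 CPM in WT livers. The 2 KI values were above the 5 WT values, and the log2 fold change was 0.96 ± 0.318 (SE, edgeR adjusted p = 0.161), which missed the threshold of 0.1. With DESeq2 the adjusted p of Fosl2 was 0.0383, and in edgeR without WT 4 it was 0.0840. In the skin Fosl2 was 271 and 148 CPM in KI and 199, 192, 126, 184 and 116 CPM in WT, and in the brain 16.5 and 22.9 CPM in KI and 12.7, 17.9, 8.11, 12.00 and 28.5 CPM in WT, with overlap in both. Fosl1 had 8 reads or fewer in every library and was tested in no tissue.

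Junb, a JUN protein that often opposes Jun, was 234 and 74.9 CPM in KI skins and 130.1, 133, 49.3, 64.9 and 24.2 CPM in WT skins. It was 75.7 and 84.7 CPM in KI livers and 165, 87.6, 117, 35.4 and 29.7 CPM in WT livers and 7.56 and 7.49 CPM in KI brains and 7.99, 9.27, 4.90, 2.92 and 10.1 CPM in WT brains. The 2 KI skins stood far apart, with KI 1 above and KI 2 among the WT values. Without KI 1 the log2 fold change of Junb in the skin went from 0.94 to -0.06. Jun and Jund had log2 fold changes of 0.78 and 0.61 in the skin, -0.14 and 0.23 in the liver, and 0.27 and -0.24 in the brain. Jun in the brain was one of the steadiest members, at 59.3 to 73.2 CPM in WT mice, and both KI brains (82.5 and 75.6 CPM) were above that range.

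Atf3 encodes a stress-induced partner of the AP-1 proteins, and Maff a small MAF factor of the same bZIP class. Atf3 was 123 and 83.9 CPM in KI skins and 45.5, 73.4, 9.09, 24.7 and 12.7 CPM in WT skins, so both KI skins lay above all WT skins. The log2 fold change was 1.64 ± 0.696 (SE, edgeR adjusted p = 0.999), although the WT skins themselves spanned 8.08-fold. In the liver Atf3 was 23.9 and 14.5 CPM in KI and 26.6, 35.2, 4.13, 6.15 and 3.49 CPM in WT, and in the brain 1.42 and 2.85 CPM in KI and 4.60, 6.06, 2.36, 1.04 and 1.40 CPM in WT. WT 1 and WT 2 were the highest of the WT mice in all 3 tissues. Maff in the skin was 44.8 and 29.3 CPM in KI and 20.8, 25.5, 13.4, 17.8 and 20.3 CPM in WT. Its log2 fold change of 0.92 ± 0.249 (SE, edgeR adjusted p = 0.758) had the smallest adjusted p of all members in the skin.

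The EGR factors are zinc-finger activators, of which Egr1 is the most widely used. Egr1 was 669 and 277 CPM in KI skins and 259, 381, 60.4, 138 and 38.2 CPM in WT skins. In the liver it was 39.8 and 32.3 CPM in KI and 203, 92.4, 28.7, 17.8 and 17.7 CPM in WT, and in the brain 27.8 and 29.7 CPM in KI and 18.4, 21.05, 4.97, 12.6 and 6.03 CPM in WT. Egr1 was the member whose difference went in opposite directions between tissues by the widest margin. Its log2 fold change was 1.43 ± 0.791 (SE, edgeR adjusted p = 0.999) in the skin, -0.998 ± 0.9301 (SE, edgeR adjusted p = 0.6197) in the liver and 1.19 ± 0.517 (SE, edgeR adjusted p = 0.4697) in the brain. In the liver the WT values were carried by WT 1 and WT 2, and the KI values lay between those and the other 3 WT livers. In the brain both KI mice lay above all WT mice.

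The other EGR members were low outside the skin. Egr2 was 27.3 and 6.80 CPM in KI skins and 9.01, 8.91, 3.66, 17.2 and 5.11 CPM in WT skins and 0.976 and 1.68 CPM in KI brains and 0.515, 0.713, 0.629, 0.923 and 0.519 CPM in WT brains, with both KI brains above all WT brains by a small margin over WT 4. In the liver it was 0.498 and 0.227 CPM in KI and 0.2601, 0.281, 0.0341, 0.408 and 0.0301 CPM in WT, which is 1 to 16 reads a library. Without KI 1 the skin log2 fold change of Egr2 went from 0.96 to -0.32. Egr4 was tested in the brain alone, where it was 1.09 and 0.871 CPM in KI and 0.0908, 0.616, 0.0314, 0.595 and 0.559 CPM in WT, that is 39 and 30 reads in KI and 1 to 20 in WT, with a log2 fold change of 1.37 ± 0.832 (SE, edgeR adjusted p = 0.612). In the liver Egr4 was at 0 reads in all libraries but WT 2 (1 read), and in the skin it had 6 reads or fewer. Egr3 in the skin was highest in KI 1 (61.9 CPM) and WT 4 (58.2 CPM), the mice with the highest keratinocyte marker sums, and the part of skin composition in this was not tested.

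The NR4A members are orphan nuclear receptors. Nr4a1 was 153 and 107 CPM in KI skins and 104, 97.3, 36.5, 50.4 and 41.03 CPM in WT skins, where the lower KI skin was just above the highest WT skin. In the liver it was 27.1 and 13.8 CPM in KI and 17.7, 26.03, 4.64, 7.57 and 2.68 CPM in WT, and in the brain 18.6 and 19.1 CPM in KI and 16.6, 31.5, 13.8, 15.7 and 17.6 CPM in WT. The log2 fold change was 0.98 ± 0.427 (SE, edgeR adjusted p = 0.999) in the skin, 0.80 in the liver and -0.01 in the brain. Nr4a2, which is needed for dopamine neurons, had a log2 fold change of 0.68 ± 0.265 (SE, edgeR adjusted p = 0.425) in the brain, where both KI mice (27.4 and 35.2 CPM) were above all WT mice (13.95 to 25.1 CPM). Nr4a3 in the brain reached 50.01 CPM in WT 5 against 5.85 to 12.95 CPM in the other WT mice. When WT 5 was left out, Nr4a3 and Jun were called higher in KI brains, along with 10.5% of all genes in either direction.

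**Figure D3:**
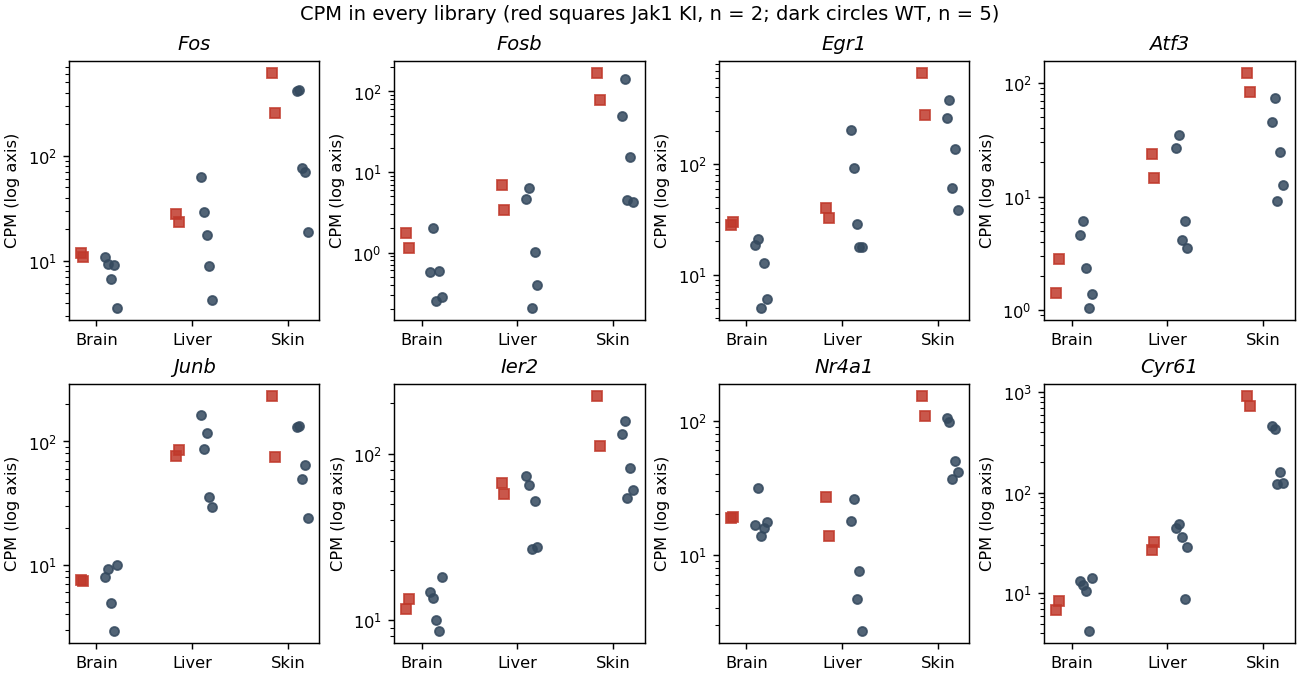
CPM on a log axis of 8 members in each library, with Jak1 KI as red squares (n = 2) and WT as dark circles (n = 5), in the order of their numbers. In the skin WT 1 and WT 2 are the highest WT circles in all 8 panels, and both KI skins lie above all WT skins for Atf3, Nr4a1 and Cyr61.

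KLF members are zinc-finger factors with roles in vessel walls and epithelia. Klf4, a factor of the upper epidermis, was 378 and 221 CPM in KI skins and 219, 217, 139, 265 and 117 CPM in WT skins. It was 12.6 and 8.16 CPM in KI livers and 3.70, 9.98, 2.05, 9.98 and 4.12 CPM in WT livers and 9.90 and 13.4 CPM in KI brains and 12.96, 21.7, 10.2, 7.47 and 4.83 CPM in WT brains. KI and WT values of Klf4 overlapped in each tissue. Klf6 and Klf2, the latter a flow-responsive gene of the endothelium, were above all WT skins in both KI skins, with log2 fold changes of 0.78 and 0.59. Klf10, an early target of TGF-beta, was the 1 member with an unadjusted p under 0.05 and a lower level in KI, in the liver, at 25.4 and 21.2 CPM against 22.5 to 63.8 CPM in WT, a log2 fold change of -0.85 ± 0.365 (SE, edgeR adjusted p = 0.267).

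Of the brakes on the response, the DUSP phosphatases remove phosphate from MAP kinases. Dusp1 was 267 and 191 CPM in KI skins and 238, 164, 77.3, 71.6 and 54.7 CPM in WT skins. Its values in the liver were 82.3 and 78.7 CPM in KI and 149, 80.1, 68.4, 55.5 and 26.4 CPM in WT, and in the brain 31.3 and 29.2 CPM in KI and 35.3, 32.4, 28.6, 24.7 and 34.3 CPM in WT. In skin and liver WT 1 was highest and WT 5 lowest of the WT mice, while the brain values lay within 1.43-fold of each other in WT. Dusp2 was above all WT mice in both KI livers (10.8 and 11.97 CPM against 2.86 to 10.2) and both KI skins (17.1 and 14.1 CPM against 8.70 to 13.98), with log2 fold changes of 0.95 ± 0.367 (SE, edgeR adjusted p = 0.2198) and 0.50. Without WT 1 the adjusted p of Dusp2 in the liver was 0.0693 in edgeR. Dusp5 was above all WT livers as well, with a log2 fold change of 0.93. Dusp6, a reporter of ERK activity in many tissues, had a log2 fold change of 0.43 in the skin, -0.05 in the liver and 0.03 in the brain.

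Zfp36 marks AU-rich transcripts for decay, Btg1 and Btg2 hold back division, and Gadd45b responds to stress and cytokines. Zfp36 and Btg2 followed the mean of the remaining members in the skin (r 0.92 and 0.98). Gadd45b did not. It was 29.7 and 17.8 CPM in KI skins and 39.6, 26.98, 25.9, 28.2 and 29.8 CPM in WT skins. In the liver it was 24.6 and 15.5 CPM in KI and 23.6, 24.4, 18.9, 31.05 and 12.7 CPM in WT, and in the brain 4.41 and 4.07 CPM in KI and 4.12, 8.66, 4.34, 3.57 and 8.18 CPM in WT. KI 2 was the lowest of the 7 skins for Gadd45b, and WT mice differed by 1.53-fold there.

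Ier2 encodes a small nuclear protein, and was among the members that best tracked the rest. It was 221 and 111 CPM in KI skins and 131, 157, 54.2, 81.9 and 60.7 CPM in WT skins. Its liver values were 66.8 and 57.4 CPM in KI and 73.6, 65.02, 26.8, 51.96 and 27.5 CPM in WT, and those of the brain 11.7 and 13.5 CPM in KI and 14.8, 13.6, 10.1, 8.60 and 18.2 CPM in WT. WT 3, WT 4 and WT 5 were the lower WT mice in the skin, as for Fos and Dusp1. Ier3 and Ier5 had log2 fold changes of 0.46 and 0.29 in the skin, -0.04 and 0.05 in the liver, and -0.53 and -0.13 in the brain.

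Arc and Npas4 record neuronal firing. Both were low in all tissues, at 4.63 to 9.20 CPM for Arc and 3.11 to 7.74 CPM for Npas4 in the brain. The log2 fold change in the brain was 0.42 ± 0.252 (SE, edgeR adjusted p = 0.6099) for Arc and -0.06 for Npas4.

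Myc, Cyr61 and Rhob answer growth factors and stretch. Myc was 76.5 and 54.9 CPM in KI skins and 47.5, 49.6, 30.6, 61.3 and 42.05 CPM in WT skins. It was 113 and 91.8 CPM in KI livers and 70.9, 99.8, 33.3, 103 and 47.3 CPM in WT livers and 31.8 and 30.7 CPM in KI brains and 26.8, 30.4, 32.5, 27.7 and 47.3 CPM in WT brains. The order of mice for Myc in skin and liver was the same in the 5 WT mice. Cyr61, a matrix protein induced through YAP and the serum response factor, was 919 and 729 CPM in KI skins and 467, 430.1, 122, 159.8 and 126 CPM in WT skins. Both KI skins were above all WT skins, and the log2 fold change of 1.66 ± 0.557 (SE, edgeR adjusted p = 0.973) was the largest of all members there. In the liver Cyr61 was 26.8 and 32.1 CPM in KI and 44.9, 48.7, 35.9, 8.76 and 29.03 CPM in WT, and in the brain 6.89 and 8.33 CPM in KI and 13.1, 12.1, 10.5, 4.20 and 14.3 CPM in WT. KI and WT overlapped in both, and WT 4 was the lowest mouse in each of them. Rhob, a small GTPase, had a log2 fold change of 0.40 in the skin, with both KI skins just above the WT range.

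Counted over the list, no member was called between KI and WT in any tissue at an adjusted p under 0.1 in edgeR's quasi-likelihood test. This was 0 of 35 members tested in the brain (0% of all genes tested there), 0 of 34 in the liver (5.57% of all genes) and 0 of 34 in the skin (0.0247% of all genes). At an unadjusted p under 0.05, 3 members were higher in KI brains (Egr1, Egr2 and Nr4a2), 2 were higher (Fosl2 and Dusp2) and 1 lower (Klf10) in KI livers, and 6 were higher in KI skins (Atf3, Dusp2, Dusp6, Klf6, Maff and Cyr61). The shares of all genes at that level were 10.6%, 17.9% and 4.57%. DESeq2 called 1 of 34 members in the liver, Fosl2 (9.95% of all genes), and 0 in the brain (3.7% of all genes) and in the skin (0.662%). In edgeR, leaving out WT 5 gave 2 calls in the brain, Jun and Nr4a3 (10.5% of all genes). In the liver, leaving out WT 1 gave Dusp2 (3.8% of all genes) and leaving out WT 4 gave Fosl2 (8.68%). No single library left out gave a call in the skin.

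The sign of the differences was uneven in the skin. The log2 fold change was above 0 for 31 of 34 members in the skin (43.3% of all genes), for 26 of 34 in the liver (46.8%) and for 18 of 35 in the brain (47.2%). The median over members was 0.60 in the skin, 0.26 in the liver and 0.03 in the brain, against -0.03, -0.02 and -0.02 over all genes. Since members move together across mice, their signs are not separate observations. Without KI 1 the skin median was 0.32, with 27 members above 0, and without KI 2 it was 0.86. The liver median was 0.06 without KI 1 and 0.46 without WT 2, and the brain median was -0.07 without WT 4 and 0.17 without WT 2. KI minus WT in the score was 0.76 in the skin (WT SD 0.554, n = 5), 0.48 in the liver (WT SD 0.634) and 0.24 in the brain (WT SD 0.222), so the liver difference was smaller than 1 SD of the WT mice. The skin difference was 0.42 without KI 1, and the liver difference 0.28 without WT 5. KI 2 stood between WT scores in skin and liver, and WT 2 was above KI 1 in the liver.

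Both KI mice were above all WT mice for 8 members in the skin (Atf3, Nr4a1, Dusp2, Klf2, Klf6, Maff, Cyr61 and Rhob), where 4.91% of all genes tested were so placed. In the liver these were 4 members (Fosl2, Egr3, Dusp2 and Dusp5), against 13% of all genes, and in the brain 6 members (Fos, Jun, Egr1, Egr2, Egr4 and Nr4a2), against 11.2%. No member had both KI mice below all WT mice in any tissue, an arrangement seen for 4.84% of all genes in skin, 11.3% in liver and 15.8% in brain. Dusp2 was the one member above in more than one tissue. The AP-1 members had positive log2 fold changes in 8 of 8 cases in the skin, 6 of 8 in the liver and 6 of 8 in the brain, with medians of 0.93, 0.15 and 0.29. For the EGR members the medians were 0.96 over 3, 0.81 over 3 and 1.10 over 4. The KLF members had medians of 0.62, 0.48 and -0.04 in skin, liver and brain, and the NR4A members 0.49, 0.44 and 0.36. For the DUSP members the medians were 0.47, 0.51 and -0.0027, and for the members that act in RNA decay and growth arrest 0.60, 0.04 and -0.16. The IER members had medians of 0.46, 0.05 and -0.13, and 0 of 3 were above 0 in the brain. Arc and Npas4 together had medians of -0.36, 0.33 and 0.18, and Myc, Cyr61 and Rhob 0.51, 0.29 and -0.08.

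**Figure D4:**
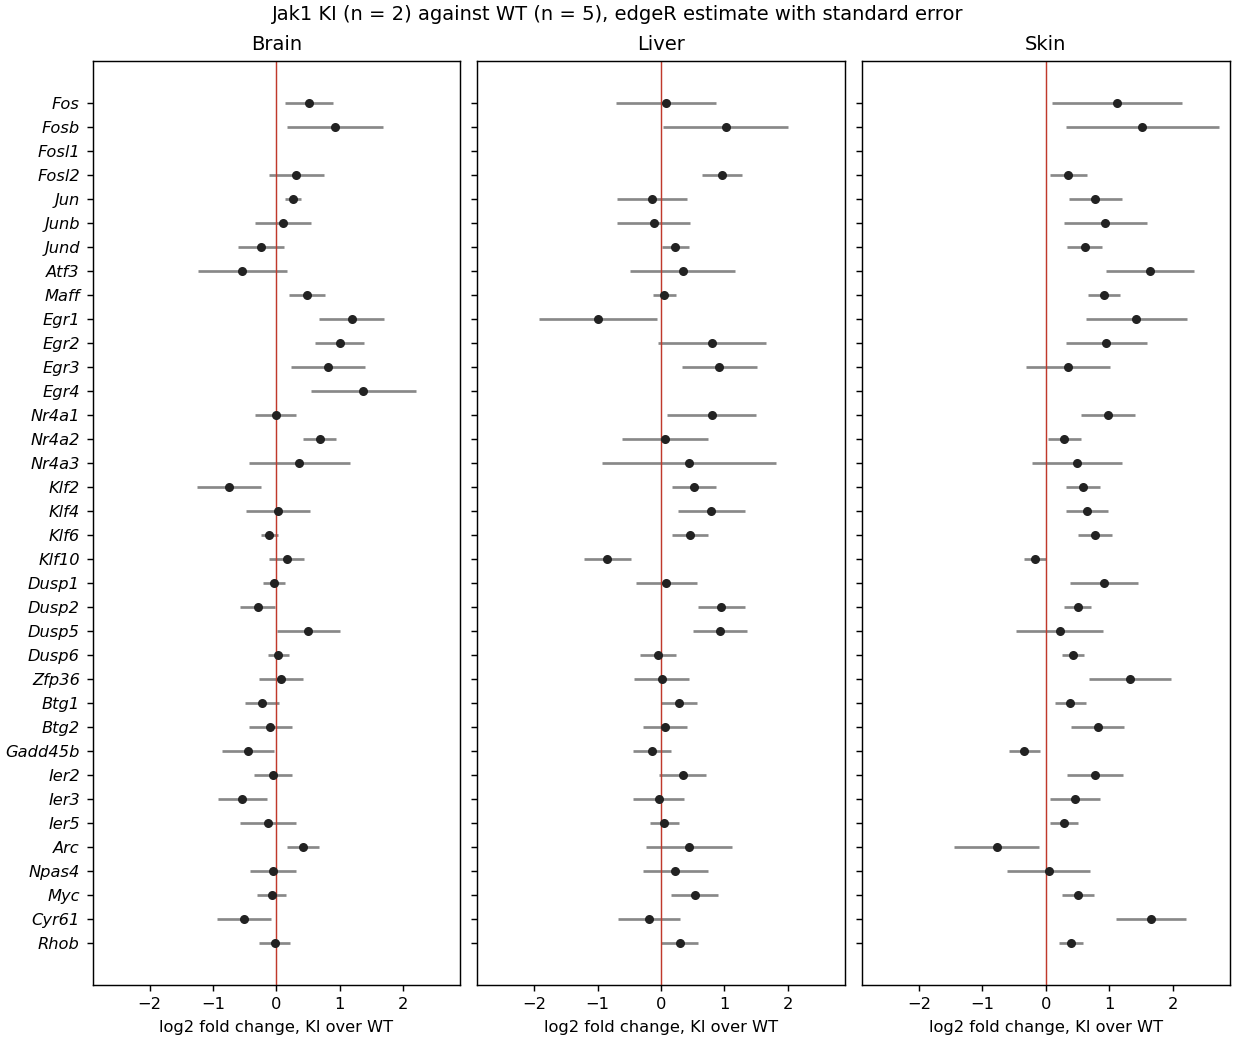
Log2 fold change of KI (n = 2) over WT (n = 5) for each member from edgeR, with the standard error as a horizontal bar and a red line at 0. In the skin 31 of 34 points lie right of 0, in the brain 18 of 35, and no member passed the adjusted threshold in any panel.

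Whether the KI effect on a member differed between tissues was tested with an interaction term over all 21 libraries. No member was called for brain against liver (0 of 35, 2.81% of all genes), for brain against skin (0 of 35, 0% of all genes) or for liver against skin (0 of 35, 0.0997% of all genes). The smallest adjusted p over the members in these edgeR tests were 0.233, 0.587 and 0.801. At an unadjusted p under 0.05 there were 2, 1 and 2 of 35 members, beside 2734, 1339 and 1001 of all 18062 genes tested. The opposite directions of Egr1 in liver and skin were therefore not shown to differ.

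In WT mice the skin had the highest levels for most members. Levels per length (RPKM, read counts scaled for exon length and library size) put the highest mean in the skin for 19 members, in the liver for 11 and in the brain for 6. In edgeR's quasi-likelihood test over the 15 WT libraries, 27 of 34 members were higher in skin than in brain (40.3% of all genes) and 3 were higher in brain (39.1%). Against the liver, 21 members were lower in the brain (40.2% of all genes were higher in liver) and 7 higher (43.3%). Between liver and skin, 17 were higher in skin (39.8%) and 6 in liver (32.5%). Without WT 1 these counts were 16 and 3 (67.1% of all genes called in either direction). The study's methods give a lower RNA integrity for the skin than for the liver, and the labels do not give the order in which tissues were taken. The part of either in the tissue levels was not tested. The median log2 difference of the members was -1.99 for brain minus skin, -1.44 for brain minus liver and -0.75 for liver minus skin, while over all genes it was -0.02, 0.06 and -0.10.

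The tissues differed in which members led. Among RPKM levels in the skin, Jund (129 ± 34.4 RPKM), Cyr61 (112 ± 72.98 RPKM) and Rhob (103 ± 18.01 RPKM) were highest, followed by Jun (78.7 ± 34.7 RPKM) and Fos (74.1 ± 73.8 RPKM). In the liver Btg2 (143 ± 57.7 RPKM) and Zfp36 (81.7 ± 44.4 RPKM) came first, and the brain was led by Rhob (97.6 ± 27.8 RPKM) and Jund (89.7 ± 39.2 RPKM). In the brain these 2 were followed at a distance by Klf6 (24.2 ± 2.43 RPKM), and Fos stood at 2.73 ± 0.997 RPKM. The levels of Jund, Cyr61 and Rhob in the skin overlapped between mice, as did those of Rhob and Jund in the brain. Klf4 was 54.4 ± 17.6 RPKM in the skin against 2.77 ± 1.78 RPKM in the liver, a log2 difference of liver minus skin -4.29, adjusted p = 1.22e-06 from edgeR. Egr3 showed the widest gap of all members, 18.1 ± 11.1 RPKM in the skin and 0.179 ± 0.0951 RPKM in the liver (liver minus skin -6.62, adjusted p = 8.63e-08 from edgeR). Maff and Myc were higher in the liver than in the skin (liver minus skin 1.86, adjusted p = 1.27e-06 from edgeR for Maff and liver minus skin 1.32, adjusted p = 0.0007196 from edgeR for Myc), as was Btg2 (liver minus skin 2.06, adjusted p = 0.000116 from edgeR).

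The members highest in the brain were the neuronal ones and 2 of the nuclear receptors. Arc was 1.51 ± 0.245 RPKM in the brain against 0.309 ± 0.2401 RPKM in the liver and 0.504 ± 0.372 RPKM in the skin. Npas4 was 1.36 ± 0.461 RPKM against 0.171 ± 0.0613 RPKM and 0.324 ± 0.193 RPKM, and both were called higher in the brain than in either tissue in edgeR. Nr4a2 was 3.91 ± 1.04 RPKM in the brain and 0.351 ± 0.302 RPKM in the liver (brain minus liver 3.46, adjusted p = 1.53e-06 from edgeR), and was also higher in brain than in skin. Nr4a3 was higher in brain than in liver (brain minus liver 4.13, adjusted p = 0.00152 from edgeR) but was not called against the skin (brain minus skin 1.60, adjusted p = 0.116 from edgeR). Egr4 and Fosl1 had their highest mean in the brain as well, at 0.144 ± 0.111 RPKM and 0.0536 ± 0.0421 RPKM, too low for a test. Dusp2 was called in none of the 3 tissue pairs, with means of 4.42 ± 1.17 RPKM, 4.13 ± 1.89 RPKM and 4.77 ± 0.869 RPKM.

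**Figure D5:**
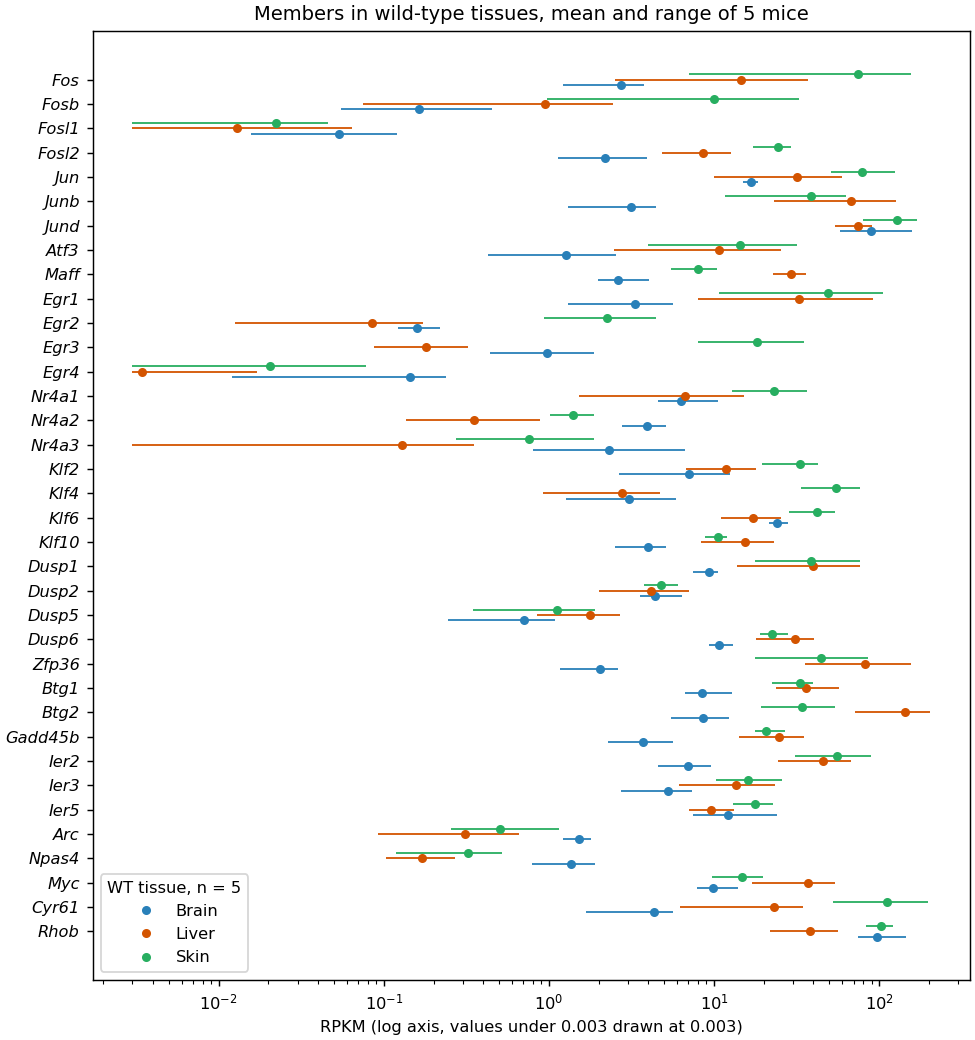
RPKM of each member in WT brain, liver and skin (dot, mean of 5 mice, and line, lowest to highest mouse) on a log axis. Skin dots lie furthest right for 19 members, and the lines of Fos, Fosb and Egr1 in liver and skin are among the longest.

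The data bear on promoters only in so far as many members move together. RefSeq windows from 250 bases before to 50 after the gene start (GRCm38.p6) were given for 29 of the 36 members, all but Fosl1, Egr1, Egr3, Ier2, Klf10, Myc and Arc. They were searched on both strands for the CArG box, the CRE (TGACGTCA) and the TRE (TGANTCA). A CArG box was found for 3 members (10.3%, against 1.81% of 27025 genes), a CRE for 3 members (10.3%, against 2.03%), and no TRE (8.97% of genes). The stretches before the start that hold these matches are shown for all 6 of these members. Their r with the remaining members in the skin was 0.86 (Dusp5), 0.70 (Egr2), 0.92 (Zfp36), 0.91 (Dusp1), 0.98 (Btg2) and 0.84 (Maff). The median over all members there was 0.90. In the same order the r was 0.90, 0.86, 0.70, 0.77, 0.94 and 0.69 in the liver (median 0.78). In the brain it was -0.38, 0.19, 0.66, 0.59, 0.37 and 0.87 (median 0.37). So members with a match did not stand out from the list. The motif is in capitals, CArG boxes in the first 3 and CREs in the last 3, and each sequence runs 5′ to 3′ on the strand of its gene.
Dusp5 (chr19:53529018-53529127, plus strand): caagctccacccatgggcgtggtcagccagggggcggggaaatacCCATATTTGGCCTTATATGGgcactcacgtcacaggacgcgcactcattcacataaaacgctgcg
Egr2 (chr10:67537449-67537548, plus strand): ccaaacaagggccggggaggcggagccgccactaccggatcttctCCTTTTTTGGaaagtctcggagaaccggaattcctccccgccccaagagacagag
Zfp36 (chr7:28379232-28379331, minus strand): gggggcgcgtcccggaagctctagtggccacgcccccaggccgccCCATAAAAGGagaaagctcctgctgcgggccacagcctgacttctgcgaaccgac
Dusp1 (chr17:26508563-26508660, minus strand): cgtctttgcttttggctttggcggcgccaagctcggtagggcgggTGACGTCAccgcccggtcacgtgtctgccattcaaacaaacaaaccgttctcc
Btg2 (chr1:134079269-134079366, minus strand): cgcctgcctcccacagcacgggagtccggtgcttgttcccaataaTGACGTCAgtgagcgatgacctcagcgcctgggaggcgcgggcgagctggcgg
Maff (chr15:79347446-79347519, plus strand): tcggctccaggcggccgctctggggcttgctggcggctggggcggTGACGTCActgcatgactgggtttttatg
The matches begin 82 (Dusp5), 72 (Egr2), 58 (Zfp36), 143 (Dusp1), 166 (Btg2) and 29 (Maff) bases before the gene start. In Dusp5 a pair of CArG boxes lies side by side. Members with no match, such as Fos and Junb, had none of these letters in this window, and nothing follows from that about the factors.

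Genes that read or carry the signal were also followed. Of 30 kinases, kinase partners and promoter-bound factors of this pathway, among them the serum response factor and CREB, 0 were called in edgeR in any tissue. At an unadjusted p under 0.05 there were 1, 2 and 0 in brain, liver and skin (10.6%, 17.9% and 4.57% of all genes). DESeq2 called 0 (3.7%, 9.95% and 0.662% of all genes). The correlation of their mean with the member score was -0.25 in skin, -0.15 in liver and -0.20 in brain over 7 mice. Over the 5 WT mice it was -0.57, 0.07 and -0.67. A list of 20 delayed early genes, which are made in the wake of the first factors, had an r with the score of 0.90 in the skin, 0.79 in the liver and 0.51 in the brain over 7 mice, and of 0.95, 0.83 and 0.29 over the 5 WT mice. Of these, 18 passed the filter in the liver, and 2 were called there (5.57% of all genes). Plaur, the urokinase receptor, was higher in KI livers (log2 fold change 0.73 ± 0.202 SE, edgeR adjusted p = 0.0980). Phlda1 was lower (log2 fold change -0.52 ± 0.128 SE, edgeR adjusted p = 0.0718). In the brain 0 delayed early genes were called and 0 had an unadjusted p under 0.05 in edgeR (10.6% of all genes), with 0 called by DESeq2 (3.7%). In the skin 0 of 20 were called in edgeR while 2 were higher in KI at an unadjusted p under 0.05 (4.57% of all genes in either direction). DESeq2 called 1 there (0.662% of all genes).

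Over 7 mice, lists of other stress genes had a lower Pearson's r with the score than the delayed early genes, but not in the brain over the 5 WT mice. For 15 heat shock genes the correlation of their mean with the score was 0.38 in skin, 0.31 in liver and 0.13 in brain over 7 mice (0.36, 0.57 and 0.70 in WT). For 12 glucocorticoid-induced genes it was 0.65, 0.66 and 0.11 (0.42, 0.61 and -0.05 in WT), and for 11 hypoxia-induced genes 0.49, -0.11 and 0.38 (0.27, -0.09 and 0.51 in WT). In edgeR 0 of the 38 genes of these 3 lists were called in any tissue. At an unadjusted p under 0.05 there were 5, 6 and 3 of 38 in brain, liver and skin (10.6%, 17.9% and 4.57% of all genes). DESeq2 called 3, 1 and 1 (3.7%, 9.95% and 0.662% of all genes). WT 4, the third of the 5 WT mice by score in liver and skin, had the highest glucocorticoid mean in the liver (7.11 log2 CPM) and the lowest hypoxia mean in all 3 tissues (4.92, 5.83 and 5.36 log2 CPM in brain, liver and skin).

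Lists of cell type markers were set beside the score in each tissue. In the liver 6 of 7 macrophage markers and 3 of 8 neutrophil markers were called higher in KI mice, where 5.57% of all genes were called in either direction. Examples were Aif1 (log2 fold change 0.84, edgeR adjusted p = 0.0260) and S100a9 (log2 fold change 0.61, edgeR adjusted p = 0.0403). The erythroid marker Slc4a1 was called lower in KI livers (log2 fold change -0.51, edgeR adjusted p = 0.0956). Of the neuronal markers, Tubb3 was called higher (mean 3.35 CPM in KI and 0.296 CPM in WT) and Stmn2 lower (0.0298 and 0.586 CPM), both at low levels. The macrophage sum was 971 and 798 CPM in KI and 495 to 662 CPM in WT, and its list mean had an r of 0.65 with the score. The hepatocyte marker mean had an r of -0.84 with the score in the liver and the endothelial marker mean one of 0.74, and the other lists lay between -0.22 and 0.25. In the skin 6 of 7 macrophage markers were higher in KI at an unadjusted p under 0.05 in edgeR (4.57% of all genes in either direction), with 0 called. DESeq2 called 3 (0.662% of all genes). The macrophage sum there was 507 and 685 CPM in KI and 337 to 453 CPM in WT. In the skin the r was 0.30 for keratinocyte, -0.48 for skeletal muscle and 0.54 for macrophage markers, with the other lists between -0.45 and 0.36. In the brain it was -0.80 for skeletal muscle markers, whose sum was highest in WT 3 (59.1 CPM against 9.12 to 22.6 CPM in the others), -0.66 for neuronal, 0.64 for macrophage and 0.58 for endothelial markers, with the other lists between -0.35 and 0.24. In the brain the share of reads outside genes had an r of -0.72 with the score. The part of any of these in the score was not tested.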

How the data were processed

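Per the study's methods, libraries were made with the TruSeq RNA Library Prep Kit v2, sequenced as paired ends and aligned to mm9 with TopHat2. The submitters' processing notes name HTSeq. The annotation and strand setting are not given in the sources used here, and the kit does not mark strand, so a gene and an overlapping antisense transcript cannot be told apart. The deposited files hold each library's raw counts of reads by gene symbol, which the authors left unscaled. Their 5 summary lines that name no gene were left out (10.3% to 18.3% of reads in a library lay outside genes). Differences were tested with edgeR 4.0.16 in R 4.3.3 (quasi-likelihood test, TMM, filterByExpr, Benjamini-Hochberg adjustment over all genes, threshold 0.1) on 7 libraries of a tissue for KI against WT, 15 WT libraries for tissues and 21 for the interaction, and checked on simulated data. DESeq2 1.42.0 was an alternative. Standard errors are the log2 fold change over the root of the F statistic. Scores used a prior count of 2. RPKM used union exon lengths of the GENCODE annotation of mm9. Every library's value is given for 10 members chosen by name and for the 3 largest changes in each tissue. Members, lists and tests were chosen with earlier results of these data known. The labels do not say whether mice came from separate litters, and p-values measure only the spread between these mice. The values of 1 delayed early gene are not reported here.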

Additional observations from a re-analysis of the deposited data

Results flagged for a closer look

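In WT brains Cyr61 was 4.20 CPM in WT 4, against 10.5 to 14.3 CPM in the other 4 WT mice. The gap between WT 4 and the nearest other mouse, divided by the range of the 5 mice, was 0.745, above the limit of 0.71 that Dixon's test sets for 5 samples. It was 1 of 46 groups of 5 WT libraries that were checked, and chance alone passes about 5% of groups.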

How the results depend on the processing

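The counts of members called between KI and WT, the tissue differences in WT mice and the interaction tests were recomputed with DESeq2's size factors, without the filter on low counts, with DESeq2's test, at 0.05, with the replicate block and with mice left out one at a time. The counts between KI and WT were also recomputed with all 21 libraries in one fit. The scores were recomputed with DESeq2's size factors and with mice left out, and the score differences with another prior count. The skin stayed at 0 called members between KI and WT in each of these, and so did the interaction tests. In the brain the count was 0, with 0 to 2 on leaving out single mice, and in the liver 0, with 0 to 1. DESeq2 gave 1 in the liver. Replicate numbers shared by KI and WT mice did not pair them (mean correlation of deviations -0.04 in the brain, -0.06 in the liver, 0.12 in the skin). With the replicate block, which leaves 4 libraries that carry information on KI against WT, 6 members were called in the brain (13.3% of all genes) and 7 in the liver (5.46% of all genes), of which 6 were lower in KI. In that fit the log2 fold change changed sign for 9 of 35 brain, 13 of 34 liver and 5 of 34 skin members. Among the 15 members whose values are given by library, these were Junb -0.19, Klf4 -0.54 and Myc 0.13 in the brain, Fos -0.73, Atf3 -0.71, Nr4a1 -0.15, Dusp1 -0.44, Ier2 -0.16 and Fosb -0.15 in the liver, and Fos -0.0758 in the skin. With all 21 libraries in one fit, 6 of the brain members, 1 of the liver members and 0 of the skin members changed sign. Nr4a1 (0.0679), Dusp1 (0.0468), Ier2 (0.0330) and Myc (0.0117) in the brain were among the 15. On leaving out single mice, 2 to 8 of the brain members, 3 to 8 of the liver members and 0 to 6 of the skin members turned. Of the 15, the sign turned in the brain for Junb (-0.0907 to 0.28), Nr4a1 (-0.11 to 0.26), Dusp1 (-0.10 to 0.0269), Ier2 (-0.16 to 0.11), Klf4 (-0.21 to 0.41) and Myc (-0.13 to 0.11), and in the liver for Fos (-0.18 to 0.79), Junb (-0.32 to 0.25), Atf3 (-0.0503 to 0.93), Dusp1 (-0.12 to 0.48), Gadd45b (-0.50 to 0.15) and Cyr61 (-0.43 to 9.05e-05). In the skin it turned for Junb (-0.0574 to 1.53), Egr2 (-0.32 to 1.63) and Fosl2 (-0.10 to 0.72), each without KI 1, when 6 members turned in all. With the median over members as the score, KI minus WT in the brain was 0.0104, and the rho between mice was 0.14 for brain and liver, 0 for brain and skin and 0.71 for liver and skin. Without single mice the rho for liver and skin was 0.94 to 1. The causes of these changes were not tested.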
